A study of Mus musculus with 36 samples.

Results

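Mouse GKRP-446P was expressed on top of GK overexpression in mouse hepatocytes, and RNA was compared with that of hepatocytes overexpressing GK alone. The comparison holds 9 of the 36 sequenced cultures: the 3 cultures whose labels give the vectors for mouse GKRP-446P and GK (called mP + GK here) and all 6 cultures labelled as control with GK (GK alone). Each of the 3 hepatocyte preparations, from 3 mice, gave 1 mP + GK culture and 2 GK cultures. The 2 GK cultures of a preparation were combined, so that 3 mP + GK samples stood against 3 GK samples, paired by mouse, within a series of 30 such samples and 10 conditions. The other groups used here are untreated hepatocytes, mouse GKRP-446P without GK overexpression (mP), and GK overexpression with mouse GKRP-446L or with human GKRP-446P, with 3 mice each.

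All cultures were primary hepatocytes of female mice of the GCKR-P446L-EMI-B6N line, 14 weeks old, which the study terms GKRP-deficient. The genotype label of mice 1 and 2 is Gckr-446L and that of mouse 3 is Gckr-446P/L, while the study's methods describe animals homozygous for 446L, so it is not settled whether the preparations shared a genotype. GKRP and GK came from adenoviral vectors added after the cells had attached. The cultures were kept for 24 h in 5 mM glucose with 10 nM insulin and 10 nM dexamethasone and then for 4 h in 25 mM glucose. A GK culture received 1 vector and an mP + GK culture 2, and no culture received a vector without an insert, so GKRP and the load of a further adenovirus cannot be told apart. Fewer cells of a type and less RNA per cell cannot be told apart in such cultures either.

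Glucokinase (GK) phosphorylates glucose in the hepatocyte and has a large share in the control of hepatic glucose use. Its regulatory protein (GKRP, gene Gckr) binds GK, inhibits it and holds it in the nucleus at low glucose, and releases it when glucose or fructose 1-phosphate rises. Phosphorylated glucose activates the transcription factor ChREBP (gene Mlxipl), which with its partner Mlx raises genes of glycolysis, fructose metabolism, lipogenesis and glucose 6-phosphate hydrolysis through paired E-box elements. Genes of DNA replication are low in resting hepatocytes, and E2F factors raise them when a cell passes from G1 to S phase. Residue 446 of GKRP is proline in GKRP-446P and leucine in GKRP-446L.

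The reference sequence just before the start site is shown for 4 genes, taken from the 2 gene groups the results turn on. Capitals mark matches to search patterns for ChREBP and E2F elements, and a match does not show that a factor binds there. The windows are the 300 bases before the canonical start site of each gene in GRCm39, written 5′ to 3′ on the strand of the gene. Pklr (liver pyruvate kinase, chr3:89043579-89043878, plus strand) and Gpd2 (mitochondrial glycerol 3-phosphate dehydrogenase, chr2:57128009-57128308, plus strand) are glucose-responsive genes, and their capitals mark a match to the paired E-box pattern CANGNGNNNNNCNCNTG on either strand:
Pklr: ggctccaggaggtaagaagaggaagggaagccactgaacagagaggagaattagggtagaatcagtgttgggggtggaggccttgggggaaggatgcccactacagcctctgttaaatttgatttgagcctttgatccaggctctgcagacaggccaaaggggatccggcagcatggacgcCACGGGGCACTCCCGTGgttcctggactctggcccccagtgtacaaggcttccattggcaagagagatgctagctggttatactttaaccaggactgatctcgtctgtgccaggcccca
Gpd2: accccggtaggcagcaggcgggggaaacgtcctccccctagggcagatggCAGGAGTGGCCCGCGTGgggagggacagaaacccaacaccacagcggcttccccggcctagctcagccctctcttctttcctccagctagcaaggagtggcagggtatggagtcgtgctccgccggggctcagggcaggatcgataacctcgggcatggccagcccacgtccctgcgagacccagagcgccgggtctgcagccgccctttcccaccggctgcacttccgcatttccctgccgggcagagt

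Mcm5 (chr8:75835840-75836139, plus strand) and Mcm4 (chr16:15455265-15455564, minus strand) code for subunits of the replicative helicase, and their capitals mark E2F elements, searched as TTTCCCGC, TTTCGCGC, TTTGCCGC and TTTGGCGC on either strand. In the Mcm5 window the matches overlap:
Mcm5: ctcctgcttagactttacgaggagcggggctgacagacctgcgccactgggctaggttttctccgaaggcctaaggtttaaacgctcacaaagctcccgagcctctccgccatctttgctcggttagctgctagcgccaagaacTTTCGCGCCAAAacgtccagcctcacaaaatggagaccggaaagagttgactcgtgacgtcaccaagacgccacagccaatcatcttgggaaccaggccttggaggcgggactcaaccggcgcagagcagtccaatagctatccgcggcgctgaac
Mcm4: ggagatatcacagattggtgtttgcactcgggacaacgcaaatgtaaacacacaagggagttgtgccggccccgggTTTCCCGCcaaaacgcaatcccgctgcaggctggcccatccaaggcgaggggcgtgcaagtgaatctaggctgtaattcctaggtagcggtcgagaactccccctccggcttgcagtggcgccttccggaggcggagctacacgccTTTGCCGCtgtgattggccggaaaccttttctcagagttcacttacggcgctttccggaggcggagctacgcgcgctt

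The paired E-box pattern was present in 60 of the 12176 windows of tested genes (0.493%), in 2 of the 28 windows of the glucose-responsive ChREBP targets (7.14%), which are the windows of Pklr and Gpd2, and in none of the 94 windows of the 5 replication lists described below. The E2F elements were present in 416 of the 12176 windows (3.42%), in 13 of the 94 windows of the replication lists (13.8%) and in 2 of the 28 windows of the ChREBP targets (7.14%). The single E-box CACGTG was present in 1030 windows (8.46%), in 3 of the 28 ChREBP windows (10.7%) and in 8 of the 94 replication windows (8.51%). These are counts of letters in a window and were given no test.

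The added gene was read in every mP + GK culture. Gckr stood at 51.8 and 56.1 CPM (reads of a gene scaled to library size) in the GK cultures of mouse 1, at 67.9 and 69.6 CPM in those of mouse 2, and at 1462 and 98.0 CPM in those of mouse 3. With mP + GK it stood at 14519, 14365 and 20179 CPM in mice 1, 2 and 3. The mP + GK cultures lay far above all 6 GK cultures, and 1 GK culture of mouse 3 lay far above the other 5. In that culture 87.8% of the Gckr reads fell on the same transcript (ENSMUST00000201166) that took 82.4% to 93.3% of them in the mP + GK cultures, against 44.2% to 53.7% in the other GK cultures. Results without that culture are given below where they bear on a count.

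**Figure D1:**
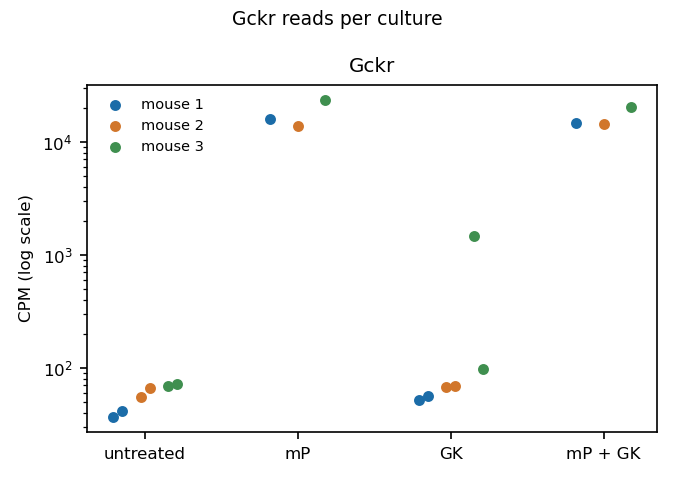
Reads of Gckr in CPM (log axis) per culture for untreated, mP, GK and mP + GK hepatocytes, with a point per culture coloured by mouse. Gckr lies at 14365 CPM or more in the mP + GK cultures and at 1462 CPM in 1 GK culture of mouse 3.

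Adding mouse GKRP-446P to GK overexpression lowered 344 and raised 431 of 12177 genes tested (2.82% and 3.54%). A gene was called at an adjusted p under 0.05 in edgeR's quasi-likelihood test with a fold of at least 1.3 or at most 0.7. On the log scale the limit for lowered genes was the stricter one. With no fold limit 593 genes were lowered and 500 raised. Glucose-responsive genes were among those lowered and genes of DNA replication among those raised. Genes whose 3 mP + GK values all lay below the 3 GK values numbered 743 (6.1%), and those whose values all lay above numbered 798 (6.55%). Among the called genes, 219 of the 344 lowered and 305 of the 431 raised did not overlap between the groups. The median log2 fold change over all genes tested was 0.03. At an unadjusted p under 0.05, 1383 genes were higher (11.4%) and 1419 lower (11.7%), the background for such counts in the lists below.

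The counts of calls rested on how the spread was estimated. Without the mouse in the model 75 genes were lowered and 125 raised, and from the 6 samples of the comparison alone 1 was lowered and 2 raised. An offset for the effective transcript lengths of each library, as Salmon gave them, left 17 lowered and 17 raised. Without mouse 1 the counts were 140 and 242, and without mouse 3 they were 133 and 125.

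The glucose-responsive targets of ChREBP were lower as a group. Of 30 genes on the list 28 were tested, Fgf21 and Pnpla3 having too few reads, and 19 were lowered, none was raised and 9 did not pass. All 28 had a negative fold change, with a median of −0.93 on the log2 scale against 0.03 for all genes, and 19 of the 28 did not overlap between the groups. DESeq2 also called 19 lowered. Without the mouse in the model 11 were lowered, from the 6 samples alone 1, and with the length offset 5, with 27 of 28 below 0. Without the GK culture rich in Gckr the count was 19. Among members named below, Tkfc, Slc2a2 and Rgs16 passed with the length offset, while Klf10, Acly, Acaca, Elovl6, Scd1, G6pc1 and Angptl8 did not (adjusted p between 0.0684 and 0.744).

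Pklr, the liver pyruvate kinase whose window is printed above, stood at 178, 121 and 229 CPM with GK alone in mice 1, 2 and 3, and at 57.4, 47.2 and 61.9 CPM with mP + GK. Each of the mP + GK samples lay below every GK sample, and the log2 fold change was −1.63 (SE 0.15, adjusted p = 2.56e-07). Txnip, which codes for an inhibitor of thioredoxin that also restrains glucose uptake, stood at 97.9, 274 and 344 CPM with GK alone and at 13.0, 37.4 and 37.7 CPM with mP + GK. The groups did not overlap, and the log2 fold change was −2.98 (SE 0.30), with an adjusted p of 1.15e-06. With the length offset both genes kept their direction but did not pass, at −1.66 for Pklr (adjusted p = 0.0723) and −2.55 for Txnip (adjusted p = 0.0940).

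Enzymes of fructose use were among the lowered genes. Tkfc, the triokinase of fructose breakdown, stood at 363, 417 and 570 CPM with GK alone and at 188, 193 and 169 CPM with mP + GK. The mP + GK values of Tkfc were close to each other, and its log2 fold change was −1.30 (SE 0.14, adjusted p = 3.76e-06). Khk, the fructokinase that makes fructose 1-phosphate, had a log2 fold change of −0.39 (SE 0.15) and did not pass. Glyctk, a glycerate kinase, was the 1 member of the 7 fructose genes that was raised, by 0.49 on the log2 scale (SE 0.11), while 2 were lowered, Tkfc among them. Glyctk did not pass without mouse 3 (adjusted p = 0.155).

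In glycolysis 4 of 17 genes were lowered and none was raised, with a median of −0.28. Pklr, Pfkp and Pfkfb3 were among the 4. Pfkfb3, which makes the activator fructose 2,6-bisphosphate, stood at 129, 133 and 149 CPM with GK alone and at 30.2, 64.6 and 59.6 CPM with mP + GK. Its groups were well apart, and the log2 fold change was −1.48 (SE 0.17). Gpi1, the glucose 6-phosphate isomerase, had a log2 fold change of −0.47 (SE 0.08, adjusted p = 0.000515), below the fold needed for a call.

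Of 6 tested transporters of glucose and monocarboxylates 1 was lowered, with 3 members above and 3 below 0 and a median of −0.11. Slc2a2, the main glucose transporter of the hepatocyte, stood at 61.7, 91.6 and 89.2 CPM with GK alone and at 8.58, 35.6 and 19.3 CPM with mP + GK, a log2 fold change of −2.15 (SE 0.27, adjusted p = 1.92e-05). G6pc1, the catalytic subunit of glucose 6-phosphatase, stood at 3.45, 24.5 and 16.6 CPM with GK alone and at 1.23, 3.86 and 1.52 CPM with mP + GK. The mouse 1 value under GK alone lay below the mouse 2 value under mP + GK, so the groups overlapped, although G6pc1 was lower in every mouse (log2 fold change −2.58, SE 0.49, adjusted p = 0.00162). Its call did not hold without mouse 2 (adjusted p = 0.0520) or without mouse 3 (adjusted p = 0.0701). Slc37a4, the glucose 6-phosphate transporter, was lowered too (−0.74, SE 0.18), but did not pass without mouse 3 (adjusted p = 0.237). G6pc1 and Slc37a4 were the 2 of 10 genes of gluconeogenesis and glucose 6-phosphatase that were lowered, and the list's median was 0.02. Pck1, the gluconeogenic carboxykinase, had a log2 fold change of 0.34 (SE 0.32) and did not pass.

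Of 15 genes of de novo lipogenesis 6 were lowered and none was raised, with a median of −0.35. Acly, which makes cytosolic acetyl-CoA from citrate, stood at 350, 572 and 790 CPM with GK alone and at 154, 300 and 269 CPM with mP + GK (log2 fold change −1.23, SE 0.15, adjusted p = 1.25e-05). Acaca, the acetyl-CoA carboxylase, stood at 133, 165 and 246 CPM with GK alone and at 49.0, 98.7 and 95.8 CPM with mP + GK (−1.15, SE 0.19), and did not pass without mouse 3 (adjusted p = 0.0615). The groups overlapped for neither gene. Elovl6 and Scd1, which elongate and desaturate fatty acids, changed by −0.97 (SE 0.12) and −0.60 (SE 0.09). Fasn, the fatty acid synthase, changed by −0.81 (SE 0.23) and Mid1ip1, which promotes assembly of acetyl-CoA carboxylase into filaments, by −0.75 (SE 0.20). Srebf1 was among the 9 members that did not pass. Among 19 genes of triglyceride synthesis and VLDL 1 was lowered, Angptl8, a secreted inhibitor of lipoprotein lipase activity in muscle and heart. Angptl8 stood at 36.8, 44.3 and 51.8 CPM with GK alone and at 15.6, 8.78 and 8.90 CPM with mP + GK (−1.998, SE 0.38, adjusted p = 0.00162), with groups that did not overlap, and missed the threshold without mouse 2 (adjusted p = 0.0518) and without mouse 3 (adjusted p = 0.0766).

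Regulators on the ChREBP list were lowered with the enzymes. Rgs16, a regulator of G protein signalling, stood at 26.04, 58.6 and 54.5 CPM with GK alone and at 6.89, 7.55 and 2.84 CPM with mP + GK (−3.00, SE 0.38). Klf10, a zinc finger factor, stood at 51.5, 70.1 and 104 CPM with GK alone and at 16.9, 16.5 and 29.0 CPM with mP + GK (−1.86, SE 0.22). Neither gene overlapped between the groups. ChREBP itself (Mlxipl) had 87.6, 87.6 and 104 CPM with GK alone and 85.2, 66.5 and 70.4 CPM with mP + GK. The log2 fold change of Mlxipl was −0.36 (SE 0.15) and did not pass (adjusted p = 0.154), and none of the 4 genes for ChREBP and its partners was called by edgeR or DESeq2, with 1 higher and 2 lower at an unadjusted p under 0.05.

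**Figure D2:**
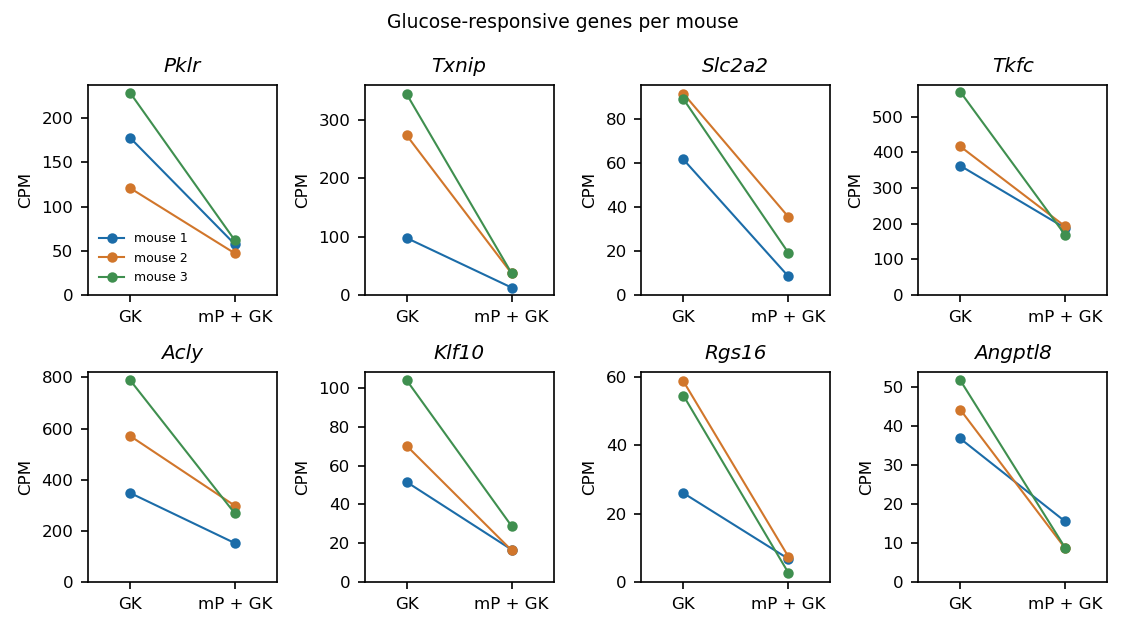
Reads in CPM (linear axes from 0) of 8 glucose-responsive genes in each mouse with GK alone and with mP + GK, a line per mouse. The line of every mouse falls for every gene, and Txnip goes from 97.9, 274 and 344 CPM to 13.0, 37.4 and 37.7 CPM.

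Mitochondrial carriers, a family of inner membrane transporters, had 4 of 34 tested genes lowered and none raised, with a median of −0.02. Slc25a47, a carrier found mainly in liver, stood at 77.8, 124 and 107 CPM with GK alone and at 29.7, 30.4 and 25.6 CPM with mP + GK (−1.84, SE 0.25, adjusted p = 5.6e-05). Slc25a44, a carrier of branched-chain amino acids, stood at 82.1, 113 and 115 CPM with GK alone and at 40.4, 59.5 and 50.0 CPM with mP + GK (−1.05, SE 0.12, adjusted p = 3.87e-06). Neither gene overlapped between the groups. Slc25a32 and Slc25a24 had log2 fold changes of −0.56 (SE 0.09) and −0.66 (SE 0.19). Slc25a24 did not pass when any 1 mouse was left out (adjusted p between 0.0703 and 0.602), and Slc25a32 did not pass without mouse 3 (adjusted p = 0.0535).

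Glycogen genes had 3 of 12 lowered: Pygl, the liver phosphorylase (−0.69, SE 0.09), Ppp1r3b, a glycogen-targeting subunit of protein phosphatase 1 (−1.03, SE 0.25), and Gys2, the liver glycogen synthase (−0.73, SE 0.23, adjusted p = 0.0495). The groups of all 3 overlapped. Ppp1r3b did not pass without mouse 1 (adjusted p = 0.101) or mouse 3 (adjusted p = 0.124), and Gys2 did not pass when any 1 mouse was left out (adjusted p between 0.146 and 0.188). Pygl did not pass without the mouse in the model (adjusted p = 0.668) or with the length offset (adjusted p = 0.665). Hexokinases other than GK had 1 of 4 lowered, Hk1 (−0.59, SE 0.18, adjusted p = 0.0431), which DESeq2 did not call and whose sign turned with the length offset (0.31). Hk1 did not pass when any 1 mouse was left out (adjusted p between 0.0774 and 0.251). The pentose phosphate list had none of 8 called by edgeR, 3 lower at an unadjusted p under 0.05 and 1 lowered by DESeq2. Of the 18 circadian genes 3 were lowered, among them Bhlhe40, a repressor of the clock (−0.93, SE 0.11), and Bmal1, a core activator (−0.66, SE 0.18, adjusted p = 0.0235). Bmal1 did not pass when any 1 mouse was left out (adjusted p between 0.0790 and 0.211). Bhlhe40 did not pass without the mouse in the model (adjusted p = 0.0582) or with the length offset (−0.35, adjusted p = 0.855).

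The 12 lowered genes with the largest fold changes included several named above. Among the others were Hcn3, a pacemaker channel gene (5.35, 5.52 and 5.51 CPM with GK alone and 1.53, 0.702 and 0.757 CPM with mP + GK; −2.47, SE 0.43), Slc17a4, an organic anion transporter (−1.93, SE 0.42), and the predicted genes Gm16170 (−2.25, SE 0.42) and Gm74490 (−2.11, SE 0.62). Hcn3 overlaps Pklr on the opposite strand, Gm16170 overlaps the lowered gene Trim7 and Gm74490 overlaps the lowered gene Shroom1, so reads of these genes and their neighbours may have been shared. Slc17a4 and Gm74490 did not pass when any 1 mouse was left out (adjusted p from 0.0505 to 0.0643 and from 0.0712 to 0.291), and Gm16170 did not pass without mouse 3 (adjusted p = 0.0662).

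The 5 replication lists were raised as a group. They held 94 tested genes of 104, of which 65 were raised, 1 was lowered and 28 did not pass, with a median log2 fold change of 1.00 against 0.03 for all genes. Their groups did not overlap upwards for 66 genes and downwards for 1. The lowered gene was Cdk6 (−0.95, SE 0.20), a kinase of early G1. DESeq2 called 64 raised and 1 lowered. Without the mouse in the model 49 were raised, from the 6 samples alone 2, with the length offset 9 and without mouse 3 40. Without the GK culture rich in Gckr 63 were raised and 2 lowered. Among genes named below, Mcm3, Mcm4, Mcm5, Ccne1, E2f1, Rbl1, Chaf1b, Rrm1 and Chek1 passed with the length offset. Mcm2, Ccne2, Cdk2, E2f8, Uhrf1, Ezh2, Slbp, Tyms, Dut, Topbp1, Msh6, Brca2 and Rad51c did not (adjusted p between 0.0562 and 0.537).

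Origin licensing and the replication fork had 30 of 40 tested genes raised and none lowered, with a median of 1.06. Mcm5 stood at 9.80, 4.65 and 9.51 CPM with GK alone and at 56.4, 32.5 and 54.9 CPM with mP + GK, a log2 fold change of 2.60 (SE 0.17, adjusted p = 1e-09). Mcm4 stood at 12.6, 12.1 and 18.3 CPM with GK alone and at 61.7, 62.0 and 86.9 CPM with mP + GK (2.29, SE 0.12, adjusted p = 4.45e-11). Mcm3 stood at 23.2, 21.5 and 25.8 CPM and at 91.4, 71.5 and 84.3 CPM (1.80, SE 0.09, adjusted p = 4.45e-11). For these helicase subunits the lowest mP + GK sample was above the highest GK sample by a wide margin, and each call held under every alternative that had more than the 6 samples of the comparison. Mcm2 changed by 2.06 (SE 0.14), with the same order of the samples, but did not pass with the length offset (2.25, adjusted p = 0.466).

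Cyclins and factors of the G1/S transition had 10 of 18 raised. Ccne1, a cyclin that activates Cdk2 at the start of S phase, stood at 2.90, 2.62 and 4.23 CPM with GK alone and at 40.0, 8.60 and 21.96 CPM with mP + GK (2.67, SE 0.22, adjusted p = 6.16e-08). Its level with mP + GK varied between mice but lay above the GK samples in each. Ccne2 stood at 2.63, 5.01 and 4.39 CPM and at 25.9, 17.0 and 33.9 CPM (2.60, SE 0.29), and Cdk2, its kinase, at 17.7, 14.8 and 17.98 CPM and at 47.0, 35.5 and 46.8 CPM (1.35, SE 0.08). E2f1, an activating E2F, rose by 1.92 (SE 0.21), E2f8, a repressing E2F, by 2.50 (SE 0.36) and Rbl1, the pocket protein p107, by 1.69 (SE 0.13). Cyclin D1 (Ccnd1) had a log2 fold change of −0.39 (SE 0.22) and did not pass.

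The list of replication-coupled chromatin had 10 of 11 genes raised, with a median of 1.49. Uhrf1, which guides maintenance methylation, stood at 4.45, 1.09 and 3.28 CPM with GK alone and at 25.6, 16.5 and 34.1 CPM with mP + GK (3.19, SE 0.32, adjusted p = 1.03e-06). Chaf1b, a subunit of the histone chaperone CAF-1, stood at 5.08, 9.08 and 9.03 CPM and at 51.0, 35.6 and 40.3 CPM (2.44, SE 0.18). The groups of both genes lay apart. Ezh2 and Slbp, which methylates histone H3 and binds histone mRNA, rose by 1.74 (SE 0.16) and 1.24 (SE 0.13).

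Enzymes of deoxynucleotide synthesis had 7 of 9 raised. Rrm1, the large subunit of ribonucleotide reductase, stood at 17.4, 22.7 and 22.2 CPM with GK alone and at 55.8, 43.4 and 52.3 CPM with mP + GK (1.28, SE 0.13). Tyms, the thymidylate synthase, rose by 1.36 (SE 0.15) and Dut, the dUTPase, by 1.51 (SE 0.14). Rrm2, the small subunit of the reductase, had a log2 fold change of −0.40 (SE 0.20) and did not pass.

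Checkpoint and recombination genes had 8 of 16 raised, and 9 further members had too few reads to be tested. Chek1, the checkpoint kinase, stood at 0.907, 1.96 and 1.76 CPM with GK alone and at 9.34, 7.90 and 16.3 CPM with mP + GK (2.76, SE 0.31, adjusted p = 4.62e-06). Topbp1, which activates the kinase ATR, rose by 0.88 (SE 0.09), Msh6, a mismatch repair factor, by 1.09 (SE 0.09) and Brca2 by 1.45 (SE 0.24), though not without mouse 3 (adjusted p = 0.0715). Rad51c, a recombination factor, was listed at 0, 0.218 and 0.160 CPM with GK alone and at 1.99, 1.41 and 1.14 CPM with mP + GK (3.35, SE 0.65), on few reads, and did not pass without mouse 3 (adjusted p = 0.0780). Genes of G2 and mitosis were scarcely read: 5 of 21 were tested and 1 was raised, Cdk1, at 1.09, 0.727 and 0.799 CPM with GK alone and 4.75, 1.76 and 4.35 CPM with mP + GK (1.93, SE 0.44). Cdk1 did not pass without mouse 1 (adjusted p = 0.122) or mouse 3 (adjusted p = 0.175). Mki67, a proliferation marker, stood between 0.351 and 2.90 CPM in the 6 samples and did not pass (−0.60, SE 0.62).

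Of the 12 raised genes with the largest fold changes, Slfn9, of the Schlafen family, stood at 7.26, 2.33 and 3.52 CPM with GK alone and at 31.1, 14.4 and 28.0 CPM with mP + GK (2.55, SE 0.20). Dppa3, known from germ cells and early embryos, stood at 2.00, 0.0727 and 0.559 CPM and at 20.8, 1.23 and 2.65 CPM (3.07, SE 0.43), overlapped between the groups and did not pass without mouse 1 (adjusted p = 0.0656). Sacm1l, a lipid phosphatase gene, stood at 0, 1.09 and 0 CPM and at 35.8, 2.99 and 4.17 CPM. Mouse 1 carried most of that difference, and Sacm1l did not pass without it (adjusted p = 0.247) or without mouse 3 (adjusted p = 0.101).

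The same list of glucose-responsive genes and the replication genes stood differently in the other contrasts of the same fit. GK − untreated shares the GK samples with mP + GK − GK, so the values are set side by side without a measure of likeness. The 28 ChREBP targets had a median of 0.92 in GK − untreated, all 28 above 0, a median of −0.23 in mP − untreated, with 7 above 0, and a median of 0.15 in mP + GK − mP. For Pklr the values were 1.00 (SE 0.14) in GK − untreated and −0.97 (SE 0.15) in mP − untreated, and for Txnip 2.09 (SE 0.29) and −1.53 (SE 0.30). The mean of Pklr was 89.2 ± 30.5 CPM in untreated samples, 45.4 ± 14.1 with mP, 176 ± 53.9 with GK alone and 55.5 ± 7.53 with mP + GK (SD, n = 3 mice each).

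The 94 replication genes had a median of 0.08 in GK − untreated and 0.95 in mP − untreated, where 88 were above 0. Mcm5 had a log2 fold change of 0.23 (SE 0.17) in GK − untreated and of 2.74 (SE 0.17) in mP − untreated, and Uhrf1 of −0.17 (SE 0.35) and 2.98 (SE 0.32). Mcm5 averaged 6.81 ± 3.19 CPM in untreated samples, 45.0 ± 13.5 with mP, 7.99 ± 2.89 with GK alone and 47.9 ± 13.4 with mP + GK (SD, n = 3 mice each). The GK vector alone is also an adenovirus, and its titre relative to the GKRP vector was not used here. In mP + GK − mP edgeR called none of the 12177 genes (0%), with 829 higher and 844 lower at an unadjusted p under 0.05.

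**Figure D3:**
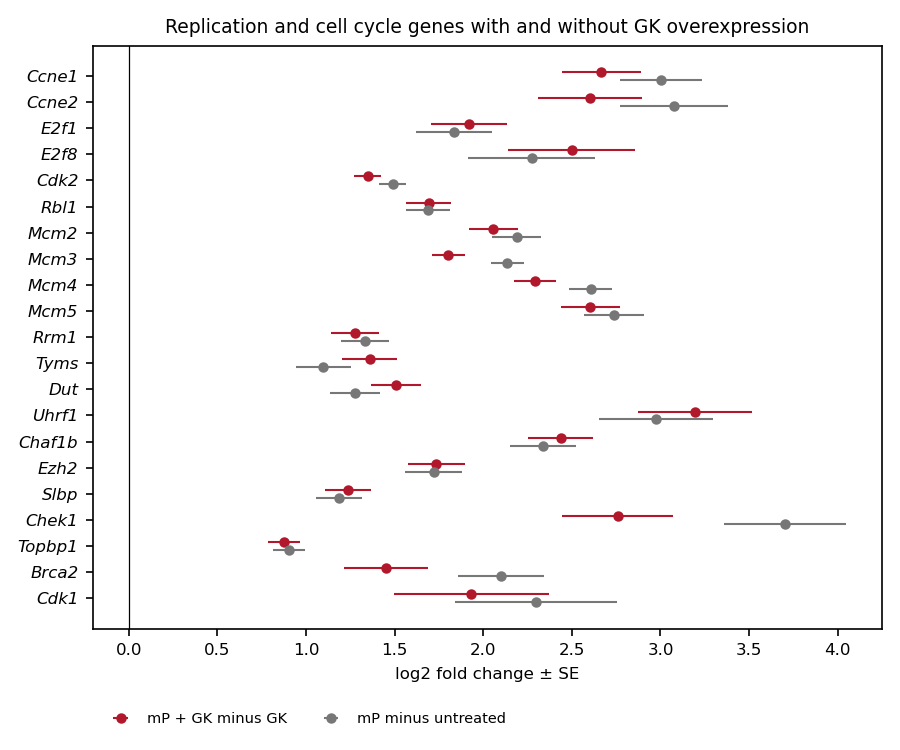
Log2 fold change with its SE for 21 replication and cell cycle genes in mP + GK − GK and in mP − untreated. Every point lies above 0, and Mcm5 lies at 2.60 and 2.74.

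Whether mouse GKRP-446P changed a gene by a different amount with and without GK overexpression was tested as an interaction, (mP + GK − GK) − (mP − untreated). edgeR called 1 of 12177 genes (0.00821%), Ulk1, a kinase that starts autophagy, which is named here after its values were seen. At an unadjusted p under 0.05, 331 genes were higher and 440 lower, and DESeq2 called 40. Ulk1 stood at 55.3, 136 and 115 CPM with GK alone and at 18.4, 53.4 and 37.5 CPM with mP + GK, and averaged 44.4 ± 22.6 CPM in untreated samples and 33.7 ± 19.1 with mP. The log2 fold change on adding GKRP-446P was −1.52 (SE 0.13) with GK overexpression and −0.40 (SE 0.13) without, and their difference of −1.12 (SE 0.18) had an adjusted p of 0.0397. Ulk1 was no longer called when any 1 of the 3 mice was left out, nor without the mouse in the model or with the length offset. The 1 gene called without mouse 3 was another one.

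None of the 28 ChREBP targets passed the interaction test in edgeR, 20 of them were lower at an unadjusted p under 0.05, and DESeq2 called 7 lower. The median of their interaction was −0.89 and 27 of 28 were negative. The interaction holds GK − untreated with its sign turned, where all 28 were above 0, and the list was chosen with earlier results of these data known. The count of negative members is therefore not separate support. For Txnip the interaction was −1.45 (SE 0.41, adjusted p = 0.546), and for Pklr −0.66 (SE 0.21, adjusted p = 0.588). Of the 94 replication genes none passed in edgeR or DESeq2, 1 was lower at an unadjusted p under 0.05, and the median was −0.01 with 47 above and 47 below 0. Mcm5 had an interaction of −0.14 (SE 0.23) and Uhrf1 of 0.22 (SE 0.45).

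**Figure D4:**
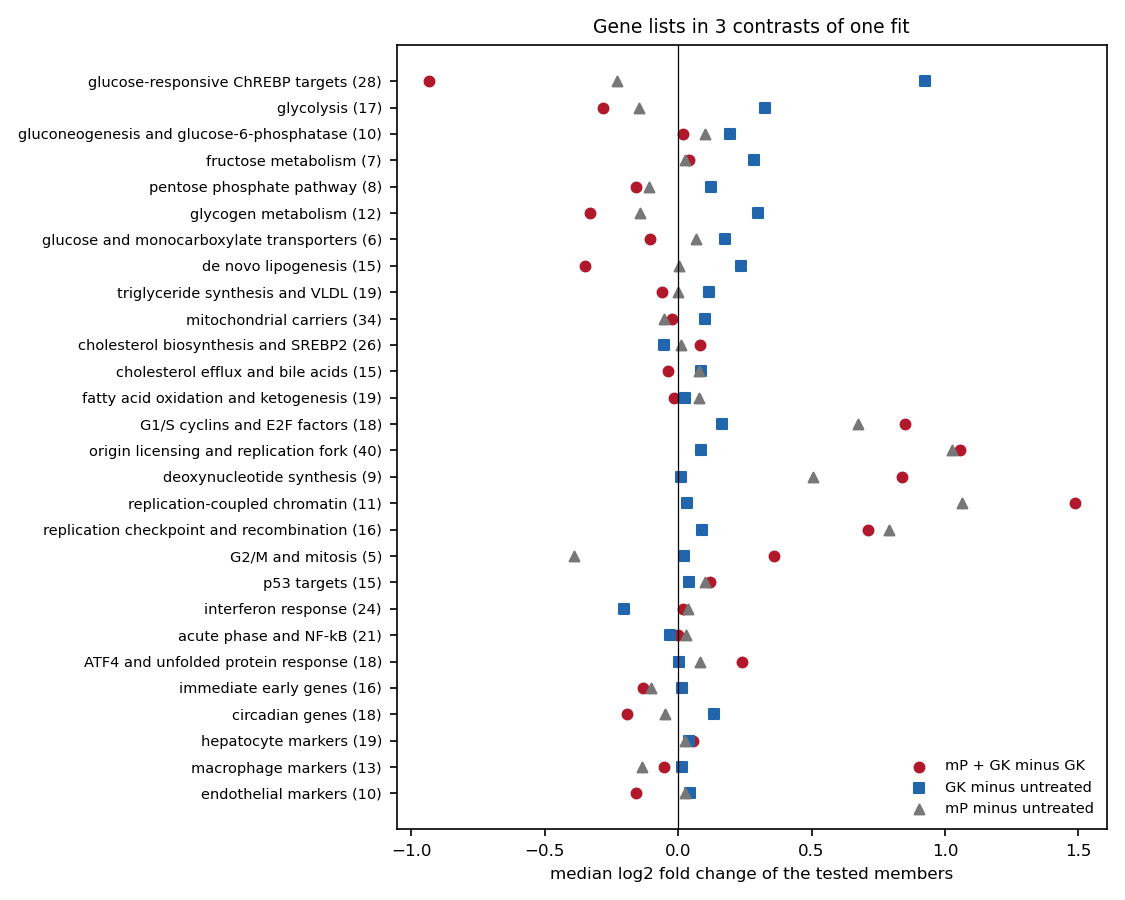
Median log2 fold change over the tested members (number in brackets) of each list with 5 or more of them, in mP + GK − GK, GK − untreated and mP − untreated. The ChREBP targets lie at −0.93, 0.92 and −0.23, and the list of origin licensing and the replication fork at 1.06, 0.08 and 1.03.

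Mouse GKRP-446P was next compared directly with mouse GKRP-446L, both with GK overexpression. edgeR called 25 genes (0.205%), 21 lower and 4 higher with GKRP-446P, and 8 of the 28 ChREBP targets were among the lower ones. All 28 targets had a negative difference, with a median of −0.65 against −0.01 for all genes, and 22 were lower at an unadjusted p under 0.05, where 547 of all genes were higher (4.49%) and 595 lower (4.89%). Pklr averaged 55.5 ± 7.53 CPM with GKRP-446P and 102 ± 18.4 with GKRP-446L (−0.87, SE 0.15, adjusted p = 0.0103). Txnip averaged 29.4 ± 14.2 and 132 ± 71.0 CPM (−2.13, SE 0.30, adjusted p = 0.00272), and Rgs16 5.76 ± 2.55 and 29.7 ± 13.4 CPM (−2.30, SE 0.38, adjusted p = 0.0103). Slc25a47 differed by −1.28 (SE 0.25) and Slc25a44 by −0.61 (SE 0.12). The 4 higher genes, given after their values were seen, were Foxa2 and Hhex, transcription factors of liver, with 0.61 (SE 0.12) and 0.52 (SE 0.10), Chka, a choline kinase, with 0.47 (SE 0.08), and Mtmr11, of the myotubularin family, with 0.60 (SE 0.12). Gckr itself was at 16435 ± 3220 CPM with GKRP-446P and 11480 ± 2777 with GKRP-446L, a difference that did not pass (0.51, SE 0.55, adjusted p = 0.772). The spread of Gckr was estimated over all 30 samples, the GK sample with the Gckr-rich culture among them. The missed threshold therefore does not show equal levels.

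The count of 25 was carried by all 3 mice together: it was 10 without mouse 1, 1 without mouse 2 and 2 without mouse 3, and it was 2 without the mouse in the model and 0 with the length offset. DESeq2 called 84. The pseudogene Krt8-ps was among the 21 lower genes, at 0.110 ± 0.0956 CPM against 102 ± 136, so its reads came unevenly from the GKRP-446L samples, and it can share reads with Krt8. Of the 94 replication genes none was called in edgeR or DESeq2 between these vectors, with 10 higher and 1 lower at an unadjusted p under 0.05 and a median of 0.16. Mcm5 averaged 47.9 ± 13.4 CPM with GKRP-446P and 43.7 ± 13.6 with GKRP-446L.

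Against human GKRP-446P with GK overexpression, edgeR called 1 of 12177 genes (0.00821%), Gckr, whose human counterpart is not part of the mouse reference. At an unadjusted p under 0.05, 762 genes were higher and 706 lower, and DESeq2 called 26. None of the 28 ChREBP targets was called or reached an unadjusted p under 0.05, with a median of 0.00 and 14 above and 14 below 0. Pklr differed by −0.05 (SE 0.15) and Txnip by −0.20 (SE 0.29). Of the replication genes none was called by edgeR and 1 by DESeq2, with a median of 0.20, and 15 were higher and 1 lower at an unadjusted p under 0.05. Mcm5 differed by 0.27 (SE 0.15). A difference that missed the threshold does not show that the vectors acted alike.

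**Figure D5:**
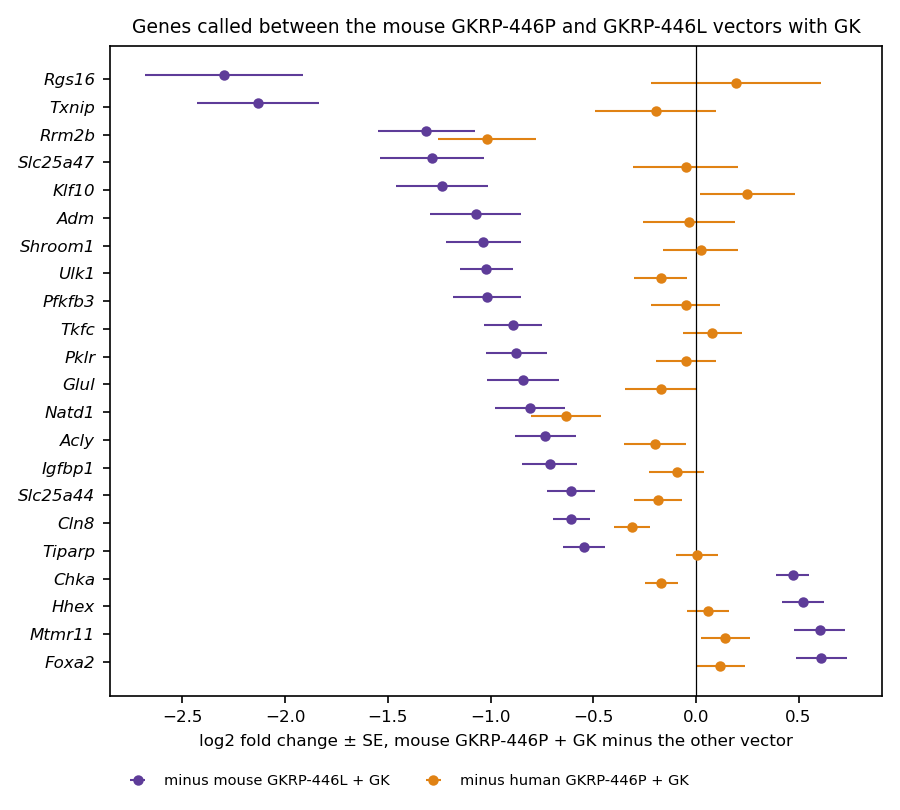
Log2 fold change with its SE of mouse GKRP-446P with GK minus mouse GKRP-446L with GK, for 22 of the 25 genes called there (Krt8-ps and 2 more left out), and of the same genes against human GKRP-446P with GK. Txnip lies at −2.13 against GKRP-446L and at −0.20 against human GKRP-446P.

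Cholesterol synthesis and the SREBP2 pathway had 1 of 26 genes raised and none lowered in mP + GK − GK, with a median of 0.08. The raised gene was Insig1, which retains the SREBP complex in the endoplasmic reticulum, at 69.8, 124 and 104 CPM with GK alone and 135, 173 and 145 CPM with mP + GK (0.63, SE 0.10, adjusted p = 0.000359). Insig1 did not pass without the mouse in the model (adjusted p = 0.296) or with the length offset (adjusted p = 0.567). DESeq2 called 2 of the 26 genes raised. At an unadjusted p under 0.05, 7 of the 26 were higher and 2 lower, against 11.4% and 11.7% of all genes. Among the genes of cholesterol efflux and bile acids none of 15 was called by either tool, with 1 higher at an unadjusted p under 0.05. Of 19 genes of fatty acid oxidation and ketogenesis 1 was raised, Bdh1, the 3-hydroxybutyrate dehydrogenase (0.67, SE 0.19), which did not pass when any 1 mouse was left out (adjusted p between 0.0531 and 0.508) or without the GK culture rich in Gckr (adjusted p = 0.0617).

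Lists for the response to virus or stress gave few calls. The p53 and ATF4 lists had a larger share of members higher at an unadjusted p under 0.05 than all genes (11.4%). None of 24 interferon response genes was called by either tool, with 1 higher at an unadjusted p under 0.05 and a median of 0.02, and Isg15, an interferon-induced ubiquitin-like protein, had 0.43 (SE 0.21). None of 21 acute phase and NF-kB genes was called by either tool, with 2 lower at an unadjusted p under 0.05. Of 15 p53 targets 1 was raised, Bbc3, a pro-apoptotic gene (1.63, SE 0.46, adjusted p = 0.0268), which did not pass when any 1 mouse was left out (adjusted p between 0.0644 and 0.263), and Cdkn1a, the inhibitor p21, had 0.24 (SE 0.09) and did not pass. Of the 15 p53 targets 5 were higher and 1 lower at an unadjusted p under 0.05, with a median of 0.12. Of 18 genes of ATF4 and the unfolded protein response 3 were raised: Herpud1 (0.57, SE 0.11), Manf (0.56, SE 0.15) and Creld2 (0.49, SE 0.14). Among these 18 genes 7 were higher and 1 lower at an unadjusted p under 0.05, with a median of 0.24. Manf did not pass when any 1 mouse was left out (adjusted p between 0.0829 and 0.129), Creld2 not without mouse 1 (adjusted p = 0.391) or mouse 3 (adjusted p = 0.320), and Herpud1 not without mouse 3 (adjusted p = 0.0715). Of 16 immediate early genes 1 was lowered, Dusp1, a phosphatase of MAP kinases (−0.68, SE 0.08), which did not pass with the length offset (adjusted p = 0.115).

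Markers of the cells were checked in both groups. None of 19 tested hepatocyte markers was called by edgeR and 1 was raised by DESeq2, 2 were higher at an unadjusted p under 0.05, and the summed TPM (a level per transcript length, scaled to library size) of the 20 markers was 76700 to 93200 with mP + GK and 81800 to 109000 with GK alone. Summed macrophage markers were at 183 to 249 TPM with mP + GK and at 276 to 401 with GK alone, ranges that did not overlap. Their median log2 fold change was −0.05, with 4 above and 9 below 0. Sums of other lists did not overlap either. Those of the cholesterol efflux and bile acid genes, with none called, were lower (263 to 348 against 361 to 500 TPM). The ATF4 list was lower too (1087 to 1261 against 1287 to 1725 TPM), and the origin licensing list higher (437 to 700 against 284 to 357 TPM). TPM are shares of a library, and 1 Gckr transcript took 59636 TPM in the mP + GK culture of mouse 3. Its part in these sums was not tested. None of the 13 macrophage genes was called by either tool, with 1 lower at an unadjusted p under 0.05, and Cd68 had −0.16 (SE 0.09). Endothelial markers summed to 22.5 to 35.5 TPM and 30.4 to 52.4 TPM, with none of 10 called by either tool and 1 lower at an unadjusted p under 0.05. Stellate markers summed to 6.60 to 17.9 and 11.8 to 30.6 TPM, and 1 of 4 tested was lowered, Reln (−0.67, SE 0.20), which did not pass without mouse 1 (adjusted p = 0.332) or mouse 3 (adjusted p = 0.280). Cholangiocyte markers summed to 10.8 to 120 and 10.9 to 235 TPM, with the highest culture of each group from mouse 1 and neither of the 2 tested called by either tool or at an unadjusted p under 0.05. No marker was at 0 in all 9 cultures, and the part of other cell types in the results was not tested.

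The 9 libraries held between 4271540 and 10046158 reads, within the range of the series (3924674 to 10046158). The p-values rest on the spread left after the terms for condition and mouse, estimated over all 30 samples and not from the 3 pairs alone. Genes under a few CPM, such as E2f2, Rad51c and Sacm1l, rest on few reads.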

How the data were processed

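Hepatocyte RNA was sequenced in 36 cultures. Per the labels and the study's methods, the authors ran Salmon 1.4.0 on untrimmed reads (checked with FastQC) against the mouse transcripts of Gencode release M26 (GRCm39). The deposited values are expected counts per transcript, not normalized, TPM normalized by the authors within each library, and effective lengths. Replicates were not pooled.

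Expected counts were summed to 52230 genes through Ensembl identifiers without version, using Gencode M39 of the same build (137570 of 139225 transcripts matched, 98.8%), and rounded. The 1655 unmatched transcripts held 0.392% to 0.639% of a library. The 2 GK cultures of a mouse, and the 2 untreated ones, were added: the GK pairs differed by a chi-square per degree of freedom of 4.27 to 13.0, so they were separate libraries. The genes that passed filterByExpr (12177) were scaled by TMM and fitted over 30 samples in edgeR 4.0.16 (R 4.3.3, limma 3.58.1) with condition and mouse as terms, the quasi-likelihood test and Benjamini-Hochberg adjustment over all genes. CPM are TMM-scaled. The standard error was taken as the fold change over the root of F. DESeq2 1.42.0, which the authors used, was an alternative. Low counts widen errors, which cover counting error and the spread left over the 30 samples after the terms for condition and mouse.

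The labels name the mouse of each culture, which pairs the samples. Deviations from condition means correlated by 0.23, 0.37 and 0.17 between the mP + GK and GK samples of mice 1, 2 and 3.

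Named genes are Gckr, Pklr, Txnip, Slc25a44, Slc25a47 and Angptl8, the 12 largest called changes in each direction that ran the same way in 3 of 3 mice, and the 4 genes with the smallest p in each list, with further members of the lists given for their function after their values were seen. Some genes that this rule picks are not reported here. Members, lists and names were chosen with earlier results of these data known. The counts of called members in the ChREBP and replication lists under each alternative were added after seeing the data. The scripts were tested on simulated counts. Python 3.11.15 (numpy 2.4.6, pandas 2.3.3, matplotlib 3.10.9) was used for joins, windows and figures.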

Additional observations from a re-analysis of the deposited data

Results flagged for a closer look

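Gckr stood at 1461.9 CPM in 1 of the 6 GK cultures, the first GK culture of mouse 3, against 51.8 to 98.0 CPM in the other 5, a gap that took 0.967 of the whole range. Among 6 such checks (levels of single genes and read totals in the 6 untreated and the 6 GK cultures) it was the 1 beyond the 95% limit, where chance would pass about 1 in 20. The log2 fold change of Ulk1 on adding mouse GKRP-446P differed by −1.12 between cultures with and without GK overexpression, as tested by the interaction (adjusted p = 0.0397 in edgeR). That call was lost when any 1 mouse was left out, without the mouse in the model and with the length offset. Ulk1 was lower with mP + GK than with GK alone in 3 of 3 mice, a count that is not one of the interaction.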

How the results depend on the processing

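Counts are given as raised and lowered genes for mP + GK − GK, then the interaction, the comparison with GKRP-446L and that with human GKRP-446P. Without the replicate block for the mouse they were 125, 75, 0, 2 and 1, and 34 of the 76 named genes with an adjusted p under 0.05 lost it. With the replicate block, the 6 samples alone gave 2 and 1, the 15 samples with GK overexpression gave 254 raised and 5 against GKRP-446L, and the 36 cultures taken as samples gave 15 for the interaction and 11 against GKRP-446L. The length offset gave 17, 17, 0 and 0. DESeq2 gave 40, 84 and 26 for the last 3 comparisons. Without a filter 242 were raised and 2 had an interaction, as 2 did with a filter of 10 CPM and without GK culture 6. With no fold limit 500 were raised and 593 lowered. With a fold of 2 or 0.5 the counts were 131 and 76, with 12 against GKRP-446L. With Gckr among the genes left out before normalization no gene was called against human GKRP-446P. Leaving out a mouse gave 125 to 324 raised, 133 to 298 lowered, 0 to 1 with an interaction and 1 to 10 against GKRP-446L. The changes with another fold limit or with Gckr left out follow from the setting itself. The cause of the other changes was not tested.

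Of the called genes named, the sign turned for Hk1, and the other genes here were not called in the report. With the length offset the values became 0.31 for Hk1, −0.17 for Dhcr7, 0.0504 for Khk, −0.0625 for Cdkn1a, 0.0063 for Itih4, 0.53 for Ppara, 2.18 for Max, 0.72 for Marco, 0.58 for Cp, 0.13 for Mlxip, 0.0345 for Spp1, −0.0839 for Tpx2 and 0.76 for Hkdc1. Dcn became 0.0274 without GK culture 6. Over the 3 fits that left out a mouse Cdh5 ran from −0.70 to 0.014, Stab2 from −0.59 to 0.0059, Spp1 from −0.31 to 0.0157, Dcn from −0.18 to 0.12 and Hk3 from −0.0714 to 0.32. The other named genes kept their direction in each alternative in which they were tested, and depth limits the genes under a few CPM.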
